A study of Mus musculus with 4 samples.

Results

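The endothelial and pericyte genes Sox18, Kdr, Cdh5, Pecam1, Tek, Pdgfrb and Kcnj8 were followed in mouse dental follicle (DF) and dental papilla (P). They were chosen by name: each probe was taken whose gene symbol in the platform table is one of the 7. All 7 genes had a probe, 12 probes in all, out of 16039 named genes and 25962 named probes. The labels describe 4 Agilent arrays, each hybridised with a pair of RNAs, for DF over P at PN2, DF over P at E17, DF PN2 over DF E17 and P PN2 over P E17. The groups are DF PN2, P PN2, DF E17 and P E17, with stages written as in the labels. Strain, sex, genotype and any pooling of animals were not given in the sources used here, and no treatment of the animals is described. The follicle wraps the tooth germ in loose connective tissue and gives the tissues that anchor the root, and the papilla inside it forms odontoblasts and pulp. The protocol text also speaks of stem cell culture and of a whole embryo, and for 1 array the tissue field says DF PN3 while its title says DF PN2. The titles were followed.

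A tissue and stage held identical signals wherever it recurred, so the data are 4 signal columns without replicates, and no p-value was computed. Of the named genes, 14238 had a highest normalised signal of 100 or more and were tested, among them all 7 of these genes. Before normalisation the median signal was 245 in DF PN2, 205 in P PN2, 290 in DF E17 and 352 in P E17. A gene is called higher or lower past 2-fold, as in the series' design text, which is 1 on the log2 scale. Each column enters 2 of the comparisons, so P PN2 bears on follicle over papilla at PN2 and on the stages of papilla alike. The technical error given is the standard deviation (SD) of the log2 ratio between probes of the same gene on the same arrays, which holds no variation between animals. It was 0.76 at PN2 and 0.58 at E17 for follicle over papilla, and 0.46 in follicle and 0.65 in papilla for PN2 over E17. The tissue labels were compared with marker lists chosen with earlier results of these data known, so this is not an independent check of them. Of 5 measured follicle markers, 4 were higher in DF than in P at both stages, and of 6 measured papilla markers, 4 were lower at both stages.

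Blood vessels are lined by endothelial cells and wrapped by mural cells, the pericytes of capillaries and the smooth muscle cells of larger vessels. Vascular endothelial growth factor (VEGF) acts on endothelial cells through the receptor encoded by Kdr, and angiopoietins act through the receptor encoded by Tek. Endothelial cells in turn release platelet-derived growth factor B, which draws in pericytes through the receptor encoded by Pdgfrb. In teeth, vessels run through the follicle and enter the papilla, where a capillary bed comes to lie beside the odontoblasts as dentin forms. Both receptors of the PDGF family are also made by mesenchymal cells, so Pdgfrb marks pericytes less exclusively than Cdh5 marks endothelium.

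RefSeq promoter sequences of build GRCm38.p6 were at hand for 3 of the 7 genes, and their 250 bases before the start of the gene are shown because they hold a VEGF receptor, an angiopoietin receptor and the channel gene Kcnj8, which had more signal in papilla than in follicle at both stages by both its probes. The probes of Kdr and Tek disagreed in papilla, as each gene's signals show. Capitals mark GGAA, the core letters recognised by ETS transcription factors, on either strand (TTCC on the other).
Kdr promoter, chr5:75978456-75978705, minus strand: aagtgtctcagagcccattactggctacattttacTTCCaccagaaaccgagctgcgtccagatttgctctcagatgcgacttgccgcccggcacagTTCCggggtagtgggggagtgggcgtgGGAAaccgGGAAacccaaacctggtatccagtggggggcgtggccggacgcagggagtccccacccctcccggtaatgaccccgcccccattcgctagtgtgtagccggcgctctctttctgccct
Tek promoter, chr4:94739039-94739288, plus strand: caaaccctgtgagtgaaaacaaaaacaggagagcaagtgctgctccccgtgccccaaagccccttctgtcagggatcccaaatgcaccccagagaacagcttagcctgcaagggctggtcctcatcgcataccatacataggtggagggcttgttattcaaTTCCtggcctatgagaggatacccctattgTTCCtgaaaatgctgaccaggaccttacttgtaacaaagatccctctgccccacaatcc
Kcnj8 promoter, chr6:142571615-142571864, minus strand: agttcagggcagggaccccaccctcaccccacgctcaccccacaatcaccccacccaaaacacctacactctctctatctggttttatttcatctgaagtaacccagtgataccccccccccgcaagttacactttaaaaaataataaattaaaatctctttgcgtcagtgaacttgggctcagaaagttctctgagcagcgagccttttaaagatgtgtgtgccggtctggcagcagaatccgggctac
The window held 4 such matches in Kdr, 2 in Tek and 0 in Kcnj8. Of 32851 RefSeq windows of the same length, 93.4% held at least 1, with a mean of 2.91 matches, so a match is common. The letters GGGCGG, core of the site of Sp factors, were searched on both strands as well. They occurred 2 times in the Kdr window, in neither of the others, and in 32.7% of all windows.

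**Figure D1:**
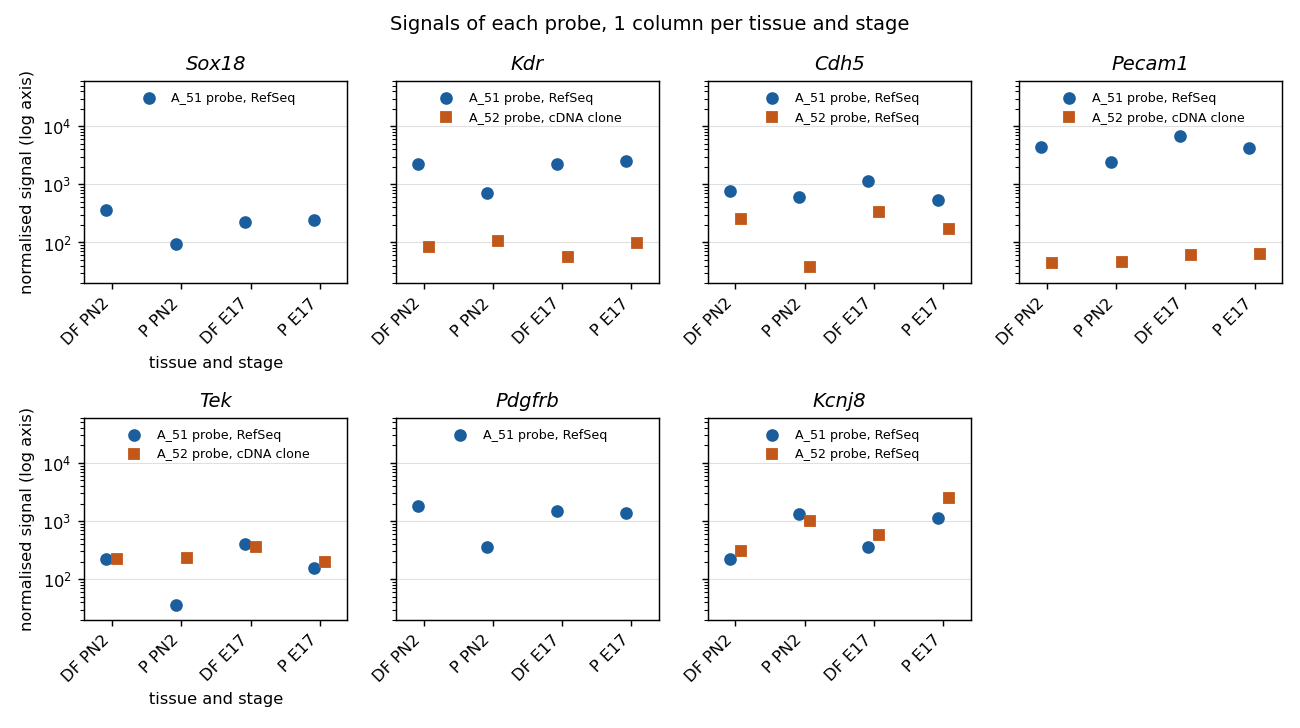
Normalised signal (log axis) of each probe of the 7 genes in DF PN2, P PN2, DF E17 and P E17, 1 point per probe and column. Circles and squares are the probes whose names begin A_51 and A_52, and the legend says whether a probe was designed on a RefSeq mRNA or a cDNA clone. Sox18, Pdgfrb and the RefSeq probes of Kdr, Pecam1 and Tek lie lowest in P PN2, while the clone probes of Kdr, Pecam1 and Tek do not. Of the RefSeq probes of Cdh5, only the A_52 probe lies lowest there. Both probes of Kcnj8 lie higher in the papilla columns than in the follicle columns.

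Sox18 encodes a SoxF transcription factor of developing blood and lymphatic endothelium. Its single probe had a normalised signal of 361 in DF PN2, 94.5 in P PN2, 221 in DF E17 and 247 in P E17. P PN2 stood apart below the other columns, while DF PN2 and P E17, and likewise P E17 and DF E17, differed by less than the between-probe SD. The log2 ratio of DF over P was 1.93 at PN2 (3.82-fold) and -0.16 at E17. Within a tissue, Sox18 was lower past 2-fold in P PN2 than in P E17 (log2 -1.39) and stood at 0.71 in DF PN2 over DF E17. In bulk tissue, fewer endothelial cells and less RNA per cell cannot be told apart. Of all genes, 3.88% had a higher ratio of DF PN2 over P PN2. The other SoxF genes were also higher past 2-fold in DF PN2 than in P PN2, Sox7 at 1.37 and Sox17 at 1.33, and their probes (2 for Sox7, 3 for Sox17) lay on the follicle side. At E17 they differed from each other, with Sox7 at 0.06 and Sox17 at 1.58 in DF over P. In P PN2 over P E17, Sox7 was lower by both probes (-1.22), and Sox17 stood at -0.06 with probes at -0.66, -0.83 and 1.30.

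Kdr encodes the main signalling receptor for VEGF on endothelial cells. Its RefSeq probe had a signal of 2203 in DF PN2, 709 in P PN2, 2268 in DF E17 and 2544 in P E17. Here too P PN2 was the low column, and the other columns lay close together. By this probe the log2 ratio of follicle over papilla was 1.63 at PN2 (3.11-fold) and -0.17 at E17, and that of PN2 over E17 was -0.04 in follicle and -1.84 in papilla. The second probe, designed on a cDNA clone, was dim, with 82.5 in DF PN2, 107 in P PN2, 57.3 in DF E17 and 96.1 in P E17, between the 11.5 and 25.8 percentile of all probes. It did not share the pattern, with log2 ratios of -0.38, -0.75, 0.53 and 0.16 in the same order. Averaged over both probes, Kdr stood at 0.63 for DF PN2 over P PN2 and -0.84 for P PN2 over P E17, neither past 2-fold, and no neighbouring columns in the order of its levels differed by more than the between-probe SD. The Kdr call therefore depends on whether the dim probe is counted.

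Cdh5 encodes VE-cadherin, the adhesion protein of endothelial junctions. Its A_51 probe had a signal of 771 in DF PN2, 609 in P PN2, 1139 in DF E17 and 541 in P E17. Its A_52 probe, on the same RefSeq mRNA, had 249 in DF PN2, 38.5 in P PN2, 339 in DF E17 and 174 in P E17. The 38.5 was at the 5.2 percentile of all probes in P PN2, so ratios of this probe that use it are less exact. The probes had like ratios of DF E17 over P E17 (1.07 and 0.96) and of DF PN2 over DF E17 (-0.56 and -0.45), but parted in P PN2. There the log2 ratio of DF PN2 over P PN2 was 0.34 by the A_51 probe and 2.69 by the A_52 probe, and that of P PN2 over P E17 was 0.17 and -2.17. The mean of both probes was 1.52 at PN2 and 1.02 at E17 for follicle over papilla. In papilla it was -1.0 for PN2 over E17, which is at the 2-fold limit (-1.0021).

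Pecam1 encodes CD31, an adhesion protein of endothelium that platelets and leukocytes carry as well. Its RefSeq probe had 4332 in DF PN2, 2450 in P PN2, 6778 in DF E17 and 4244 in P E17. DF lay above P at both stages, and E17 above PN2 in both tissues, in each case by less than 2-fold. The log2 ratios by this probe were 0.82 at PN2 and 0.68 at E17 for follicle over papilla, and -0.65 in follicle and -0.79 in papilla for PN2 over E17. The probe on a cDNA clone was dim in every column, between 44.6 and 64.4, and drew the gene's mean ratio to 0.40 at PN2 and 0.30 at E17.

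Tek encodes Tie2, the angiopoietin receptor. Its RefSeq probe had 219 in DF PN2, 35.3 in P PN2, 402 in DF E17 and 154 in P E17, and its cDNA clone probe had 221 in DF PN2, 236 in P PN2, 362 in DF E17 and 197 in P E17. The probes lay together in 3 columns and apart in P PN2, where the RefSeq probe was at the 4.2 percentile of all probes and the clone probe at the 46.7 percentile. Both had Tek on the follicle side at E17 (1.39 and 0.88, the second within 2-fold) and below 0 in DF PN2 over DF E17 (-0.88 and -0.72, both within 2-fold). They went opposite ways for DF PN2 over P PN2 (2.63 and -0.10) and for P PN2 over P E17 (-2.12 and 0.26). Averaged, Tek was at 1.27 at PN2 and 1.13 at E17 for follicle over papilla, and at -0.93 in papilla for PN2 over E17.

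**Figure D2:**
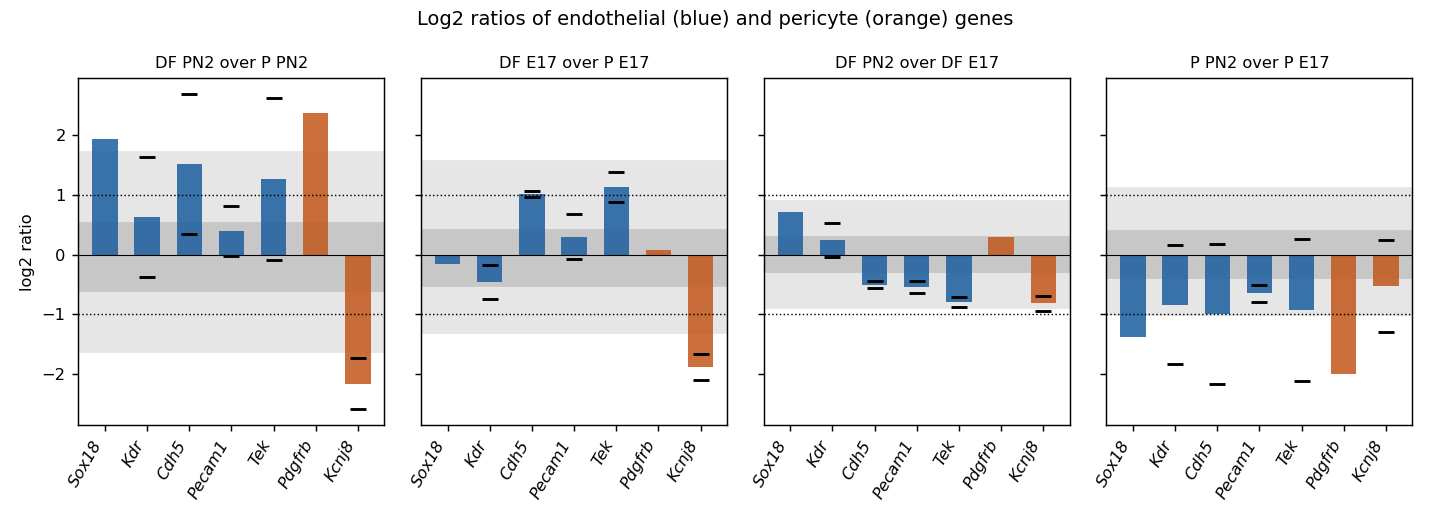
Log2 ratios of the 7 genes, follicle over papilla at PN2 and at E17, and PN2 over E17 in follicle and in papilla. Bars are means over probes, short black lines the probes of genes with more than 1, dark and light grey bands the middle 50% and 90% of all 14238 genes, and dotted lines the 2-fold limit. All 7 bars point down for P PN2 over P E17, and Kcnj8 is the bar that points down in both follicle-papilla comparisons past 2-fold.

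Across the 7 genes, by probe means, 4 had a higher signal past 2-fold in DF PN2 (Sox18, Cdh5, Tek and Pdgfrb) and 1 a lower one (Kcnj8) compared with P PN2. The median log2 ratio of the 7 was 1.27, and every probe lay above 0 for 3 of the 4. The Tek probes were at 2.63 and -0.10 in that comparison, and those of Cdh5 at 0.34 and 2.69. Of all genes tested 26.2% passed 2-fold there, 12.8% higher and 13.4% lower, with a median of -0.07. At E17, 2 were higher (Cdh5 and Tek) and 1 lower (Kcnj8), with a median of 0.08, against 20.6% of all genes past 2-fold, 10.5% higher and 10.1% lower. In DF PN2 over DF E17, 0 of 7 passed 2-fold, where 7.89% of all genes did (3.83% higher, 4.06% lower), and the ratios ran between -0.82 and 0.71. In P PN2 over P E17, 3 of 7 were lower (Sox18, Cdh5 and Pdgfrb) and 0 higher, with a median of -0.93, against 11.6% of all genes past 2-fold, 5.09% lower and 6.55% higher, and a median of -0.02. The probe means of all 7 genes were below 0 there, between -2.0 and -0.53. Of the 3 called lower, 2 had every probe below 0, while the Cdh5 probes were at 0.17 and -2.17. The change of the follicle-papilla ratio, PN2 minus E17, was higher past 2-fold for 3 (Pdgfrb 2.30, Sox18 2.09, Kdr 1.09), and lower for 0. Of all genes 17.3% passed, 8.12% higher and 9.14% lower.

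For Kdr, Cdh5, Tek and Kcnj8, though not throughout for Pecam1, the gap between probes was wider where P PN2 entered. For the 5 genes with 2 probes, the gap in P PN2 over P E17 was 2.00 for Kdr, 2.35 for Cdh5, 2.38 for Tek, 1.54 for Kcnj8 and 0.29 for Pecam1, against a median of 0.54 over 4220 genes with 2 probes. In DF PN2 over DF E17 the same genes had gaps between 0.12 and 0.57 (median of the 4220 genes 0.36). In DF E17 over P E17 they lay between 0.11 and 0.76, the highest being that of Pecam1 (median 0.44). For these 4220 genes, each probe's log2 signal was also centred on its own mean over the columns. The centred values of a gene's 2 probes were then compared within each column. Their root mean square difference, in log2 units, was 0.54 in DF PN2, 0.66 in P PN2, 0.48 in DF E17 and 0.52 in P E17. A constant offset between the probes of a gene does not enter these values. The cause of the wider gaps in P PN2 was not tested. Sox18 and Pdgfrb have 1 probe each, so this check could not be made for them.

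A list of 24 other endothelial genes was set beside these 7, with 22 of them measured. In DF PN2 over P PN2, 9 were higher past 2-fold and 0 lower, with a median of 0.86, and every probe of the 9 lay on the follicle side. The shares over all genes there were 12.8% higher and 13.4% lower. Tal1 (2.46) and Cd34 (1.76), which blood-forming cells also express, had the highest ratios, and Tie1, the partner receptor of Tek, was at 1.23. Flt1, the VEGF receptor that acts in part as a decoy, was at 0.91, and its 5 probes ran between 0.11 and 1.68. At E17, 3 of 22 were higher and 0 lower (median 0.46), led by Erg, a transcription factor gene of endothelium (1.85), and Ptprb, a receptor phosphatase gene (1.22). Over all genes 10.5% were higher and 10.1% lower, so the 3 of 22 are not far from that share. In DF PN2 over DF E17, 2 were higher (Lyl1 1.61, Tal1 1.37) and 0 lower, with a median of 0.05, against 3.83% and 4.06% of all genes. In P PN2 over P E17, Lyl1 (1.55) was higher and Cd34 (-1.34) lower, with a median of -0.13. That is near the 6.55% higher and 5.09% lower of all genes. The same shares of all genes stand beside the counts of every list that follows.

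By their probe means the 5 endothelial genes lay below most of this list in the papilla comparison. In P PN2 over P E17, Sox18 lay below all 22 listed genes, Cdh5 and Tek below 21, Kdr below 20 and Pecam1 below 18. Their mean was -0.96 with an SD of 0.27 between the 5 genes, of which Sox18 and Cdh5 passed 2-fold. All 5 come from the same single columns, so the SD gives no error of the change in papilla. These ranks and this SD rest on means of probes that differ in sign for Kdr, Cdh5 and Tek. With the brightest probe alone, Cdh5 was at 0.17, Tek at 0.26 and Kdr at -1.84. Of the 22 listed genes, 9 were above 0 and 13 below. In DF PN2 over DF E17, Tek and Pecam1 lay below 21 of 22 and Sox18 above 19 of 22.

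**Figure D3:**
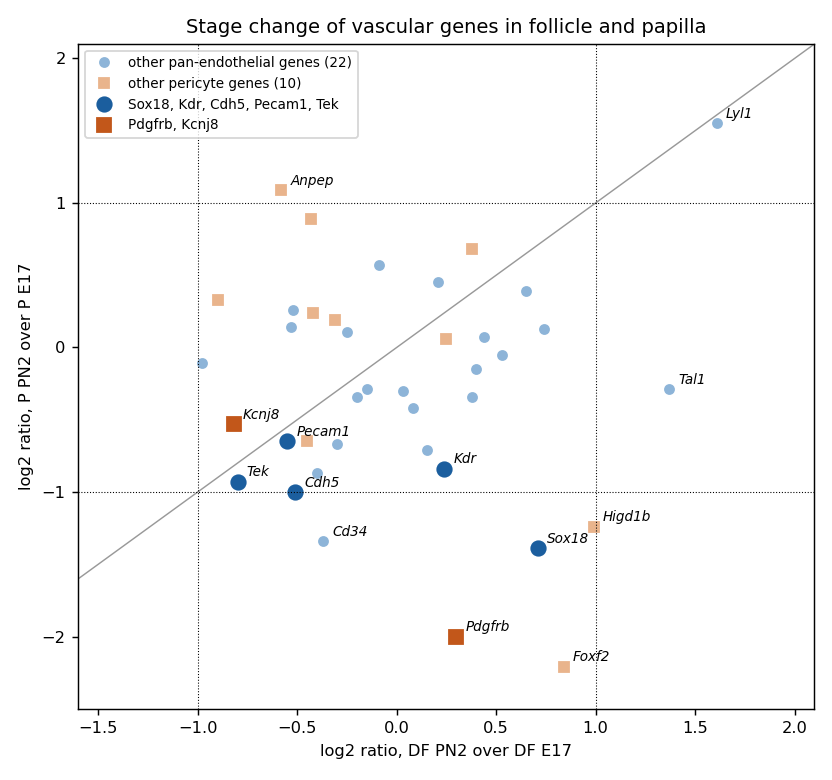
Log2 ratio of PN2 over E17 in follicle (horizontal) and in papilla (vertical) for the 7 genes, 22 other endothelial genes and 10 other pericyte genes, 1 point per gene. The diagonal marks an equal change in both tissues and dotted lines the 2-fold limits. Sox18 (0.71 in follicle, -1.39 in papilla) and Pdgfrb (0.30 and -2.0) lie far below the diagonal, while Kcnj8 (-0.82 and -0.53), Tek (-0.80 and -0.93) and Pecam1 (-0.55 and -0.65) lie near it.

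Among VEGF ligands, Vegfa, the main ligand of Kdr, stayed within 2-fold in each comparison, with -0.39 at PN2 and 0.41 at E17 for follicle over papilla, and -0.41 in follicle and 0.40 in papilla for PN2 over E17. Its signal was 1062 in DF PN2, 1391 in P PN2, 1408 in DF E17 and 1056 in P E17. Pgf, a ligand of Flt1, was on the follicle side at PN2 (1.52) and at E17 (2.14), and Vegfd was on the papilla side (-1.24 and -1.74) with low signals of 123 or less. The receptors and coreceptors other than Kdr and Flt1 were higher in follicle at both stages: Nrp2 at 2.21 and 1.65, Flt4 at 2.02 and 1.25, and Nrp1 at 1.21 and 1.74. In all, 4 of 10 measured VEGF genes were higher and 1 lower in follicle at each stage, and 0 of 10 passed 2-fold between stages in either tissue. Between stages only 7.89% of all genes passed in follicle and 11.6% in papilla, so 0 of 10 is near those shares. Kdr thus had the lowest ratio of P PN2 over P E17 in this list, at -0.84 by its probe mean.

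Of the angiopoietin genes, Angpt2, which modulates Tek signalling in vessel remodelling, had 2261 in DF PN2, 718 in P PN2, 3166 in DF E17 and 1451 in P E17. By its 1 probe it was higher past 2-fold in follicle at PN2 (1.65) and E17 (1.13). It was lower in P PN2 than in P E17 (-1.01, at the limit). For Tek that ratio was -2.12 by the RefSeq probe and 0.26 by the clone probe. Angpt1, the activating ligand of Tek, lay within 2-fold, with -0.18 at PN2 and 0.75 at E17, but its 2 probes differed (0.63 and -0.98 at PN2). Angpt4 was higher past 2-fold at PN2 in both tissues, with 1378 in DF PN2 against 587 in DF E17 (1.23) and 2196 in P PN2 against 319 in P E17 (2.78). In the list of 6 angiopoietin and Tie genes, 3 were higher in follicle at PN2 and 3 at E17, and 0 lower. Shares over all genes were 12.8% higher at PN2 and 10.5% at E17.

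Pdgfrb had a signal of 1824 in DF PN2, 351 in P PN2, 1477 in DF E17 and 1401 in P E17 by its single probe. P PN2 lay far below the other columns, which differed from their neighbours by less than the between-probe SD. The log2 ratio of follicle over papilla was 2.38 at PN2 (5.19-fold) and 0.08 at E17, and that of PN2 over E17 was 0.30 in follicle and -2.0 in papilla. Of all genes, 0.33% had a lower ratio of P PN2 over P E17, and 0.927% a higher change of the follicle-papilla ratio (2.30). Its ligand gene Pdgfb, which endothelial cells express, did not show this step: it had 513 in DF PN2, 125 in P PN2, 479 in DF E17 and 162 in P E17, so follicle was higher at PN2 (2.04) and at E17 (1.57). The related receptor gene Pdgfra was on the papilla side, with 767 in DF PN2, 1888 in P PN2, 962 in DF E17 and 1965 in P E17 (-1.30 and -1.03). A list of 8 mesenchymal cell markers that includes Pdgfra went both ways, with 2 higher and 2 lower in follicle at PN2 and 4 higher and 2 lower at E17. For PN2 over E17 in papilla, 3 of them were higher and 1 lower, the transcription factor gene Twist1 at -1.89. Pdgfc had 212 in DF PN2, 193 in P PN2, 207 in DF E17 and 22.8 in P E17, which gave log2 ratios of 3.18 for follicle over papilla at E17 and 3.08 for PN2 over E17 in papilla. Because the low value was below 37.9, the 5th percentile of the normalised values, these ratios are less exact.

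Kcnj8 encodes the pore subunit of an ATP-sensitive potassium channel that pericytes and smooth muscle cells carry. Its A_51 probe had 222 in DF PN2, 1343 in P PN2, 359 in DF E17 and 1141 in P E17, and its A_52 probe had 301 in DF PN2, 1006 in P PN2, 580 in DF E17 and 2479 in P E17. Papilla exceeded follicle by both probes at both stages, with log2 ratios of -2.60 and -1.74 at PN2 and of -1.67 and -2.10 at E17. Averaged, the ratio was -2.17 at PN2 and -1.88 at E17, so that papilla had 4.50-fold and 3.69-fold the follicle signal, and 2.13% and 1.64% of all genes had a lower ratio. Between stages it was -0.82 in follicle, past the between-probe SD of 0.46 but within 2-fold. In papilla it was -0.53, with probes at 0.24 and -1.30. The partner subunit Abcc9, which forms the channel together with Kcnj8 in mural cells, went the other way. It had 531 in DF PN2, 271 in P PN2, 708 in DF E17 and 230 in P E17, with log2 ratios of 0.97 at PN2 and 1.62 at E17 and all 3 probes on the follicle side at both stages. The related pore gene Kcnj11 was near 100 in every column, between 79.5 and 140, and within 2-fold in each comparison.

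The 2 pericyte genes therefore did not share a pattern, and neither followed the other pericyte genes throughout. Of 13 listed, 10 were measured, with 5 higher and 1 lower in follicle at PN2 (median 1.02) and 6 higher and 2 lower at E17 (median 1.76). All genes had 12.8% higher and 13.4% lower at PN2, and 10.5% and 10.1% at E17. At both stages 9 of the 10 had a higher ratio than Kcnj8, and the exception, Cox4i2, a mitochondrial subunit gene used as a pericyte marker in mouse, was also on the papilla side (-2.74 at PN2 and -2.45 at E17). Foxf2, a transcription factor gene of mesenchyme and brain pericytes, was on the papilla side at E17 (-1.82) and on the follicle side at PN2 (1.23), a change of 3.05. Higd1b (4.63 at PN2, 2.40 at E17) and Foxc1 (1.76 and 2.99) were on the follicle side. Rgs5, a regulator of G protein signalling in pericytes, was at 0.62 and 1.94, with 1 of its 2 probes at -0.06 at PN2. In P PN2 over P E17, Pdgfrb lay below 9 of the 10, the exception being Foxf2 at -2.21. Higd1b was lower as well (-1.24) and Anpep higher (1.09), but the 26.9 of Higd1b in P PN2 and the 29.2 of Anpep in P E17 lay under the 5th percentile, so both ratios are inexact. Of 10 smooth muscle genes 9 were measured, with 2 higher (Tagln 1.49, Acta2 1.35) and 3 lower (Cnn1 -1.68, Synpo2 -1.30, Mylk -1.20) in follicle at PN2, and 0 passed 2-fold between stages in either tissue. That 0 is near the shares of all genes between stages, 7.89% in follicle and 11.6% in papilla.

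**Figure D4:**
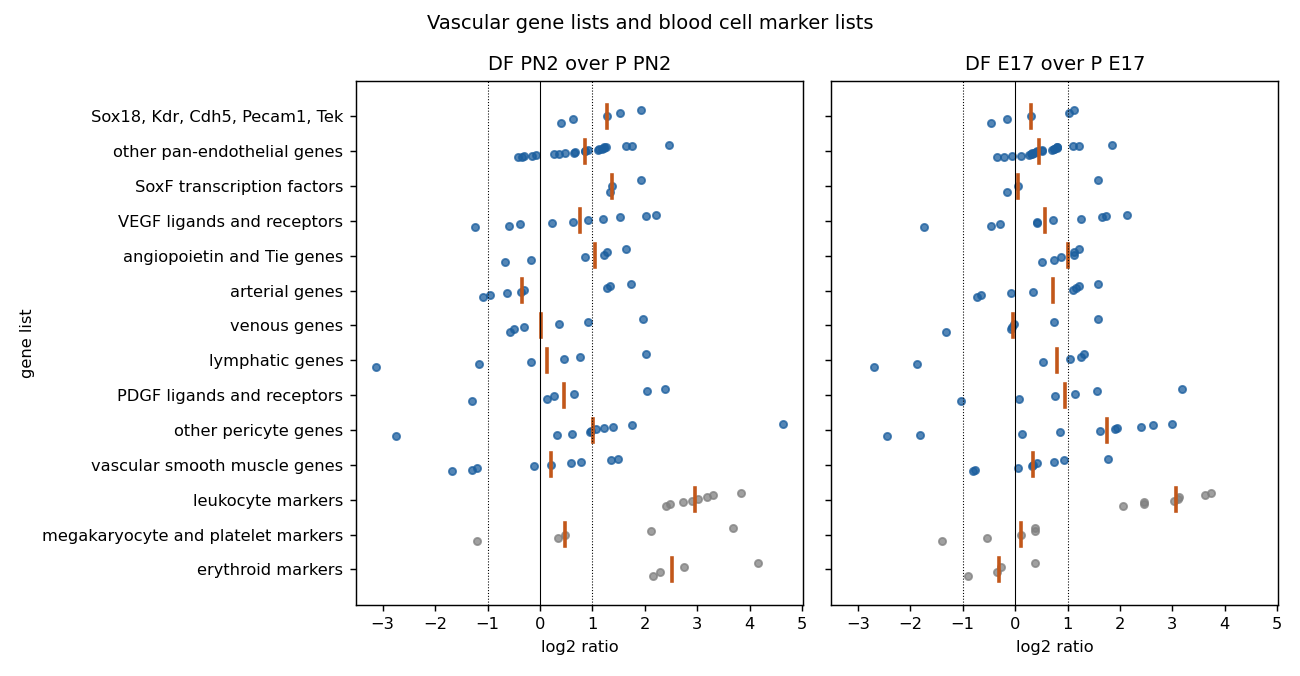
Log2 ratios of follicle over papilla at PN2 and at E17 for vascular gene lists (blue) and blood cell marker lists (grey), 1 point per measured gene. Orange lines are medians and dotted lines the 2-fold limits. The other endothelial genes have medians of 0.86 at PN2 and 0.46 at E17, the other pericyte genes 1.02 and 1.76, and the erythroid markers 2.52 and -0.30.

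Markers of blood cells also differed between the columns, partly in other ways than the 7 genes. The summed normalised signal of 4 erythroid markers was 19224 in DF PN2, 3478 in P PN2, 6053 in DF E17 and 7369 in P E17, and all 4 were higher past 2-fold in DF PN2 than in P PN2 and 2 of 4 lower in P PN2 than in P E17. For 5 megakaryocyte and platelet markers the sum was 3697 in DF PN2, 1220 in P PN2, 839 in DF E17 and 1050 in P E17. Pf4 alone had 2408, 188, 298 and 228 in the same order. In DF PN2 over P PN2, 2 of the 5 were higher past 2-fold (Pf4 3.68, Gp9 2.11) and 1 lower (Gp6 -1.20). The sum of 8 leukocyte markers was 39289 in DF PN2, 4796 in P PN2, 33153 in DF E17 and 3489 in P E17, so leukocyte signal was far higher in follicle at both stages (8 of 8 genes past 2-fold at each). For PN2 over E17 in papilla, where the 7 genes had probe means below 0, all 8 leukocyte markers were above 0 (median 0.47). In follicle all 4 erythroid markers were higher past 2-fold at PN2, where 0 of the 7 genes passed. Only 7.89% of all genes passed there, 3.83% higher, so the 0 of 7 is near that share. The lowest deposited signal in any column was 13.3, so no marker was listed at 0. Platelets and leukocytes express Pecam1, and some blood-forming cells express Tek, Tal1, Lyl1 and Cd34. Their part in the values of these genes was not tested.

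By the root mean square difference of centred log2 signals over the 4 columns, the genes most like Pdgfrb were Vdac2 (0.136), Igfbp7 (0.138) and Sall2 (0.145), with 7 of 13480 candidate genes within 0.2. Those most like Kcnj8 were Olfr487 (0.0507), Csf2ra (0.0622) and Pank1 (0.0722), with 27 within 0.2. The mean profile of the 5 endothelial genes was closest to Dync1i2 (0.0191), Mad2l1bp (0.024) and Nono (0.0253), and 363 genes lay within 0.2. With 4 columns such a likeness is easily met, and these names describe the columns only.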

How the data were processed

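The authors deposited linear signal intensity for 30146 probes in 1 table per array, and the submitters' processing notes name Agilent Feature Extraction, version 8.5.1.1. Whether background was subtracted, and the limit of detection, are not given in the sources used here. A deposited table of log10 ratios differs from the ratios of these signals by a fixed amount on each array, to within 0.001 for at least 99.993% of the probes. In the file for P PN2 over P E17 the second header reads DF E17, and its values are those of DF E17 throughout, so P E17 was taken from the DF E17 over P E17 array.

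Signals were turned to log2 without a pseudocount, quantile normalised over the 4 columns with Python 3.11.15 and pandas 2.3.3, and the probes sharing a platform gene symbol were averaged. The 4184 probes without a symbol were left out. Genes were kept where the highest normalised signal reached 100. With 1 column per group no test was possible, and fold changes past 2-fold are descriptions. The number of arrays limits the precision. The pipeline was tested on simulated data. Of 22 gene lists, those used are given with their counts.

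The genes and lists were chosen with earlier results of these data known. Genes named are all 7 with every probe, genes among the 2 highest and 2 lowest of a list where past 2-fold, direct partners of the 7, and the 3 most similar profiles. Not every such list gene was given, for example Nr2f2, Mmrn1, Gja4, Hey1 and Kcnj10. Other genes were named after their values were seen: Rgs5, Angpt4, Pdgfc and Nrp1. Alternatives tried were no normalisation, median centring, the deposited ratios, the median or the brightest probe, no filter, and low signals raised to the 5th percentile. The use of RefSeq probes alone was added after the data were seen.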

Additional observations from a re-analysis of the deposited data

Results flagged for a closer look

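Sox18 and Pdgfrb had opposite directions in the 2 tissues or the 2 stages, with 1 column each, and these differences were not tested. Sox18 stood at 1.93 in DF PN2 over P PN2 and at -0.16 in DF E17 over P E17, and at 0.71 in DF PN2 over DF E17 and -1.39 in P PN2 over P E17. Pdgfrb stood at 0.30 in DF PN2 over DF E17 and -2.0 in P PN2 over P E17. Each rests on 1 probe, and the smaller value of each pair, except the 0.71 of Sox18, was within the between-probe SD.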

How the results depend on the processing

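Of 280 ratios of the 7 genes under 8 alternatives, 11 turned sign, 2 of them past 2-fold before. With the brightest probe alone Tek was at -0.10 in DF PN2 over P PN2 and 0.26 in P PN2 over P E17, Cdh5 at 0.17 in P PN2 over P E17, and their change between stages at -0.98 for Tek and -0.73 for Cdh5. Without normalisation the median of all genes was 0.21 at PN2 and -0.32 at E17 for follicle over papilla, -0.23 in follicle and -0.80 in papilla for PN2 over E17, and 0.52 for the change between stages. Of all calls, the share that was higher was then 63.3% (48.9% with normalisation), 25.5% (50.9%), 21.2% (48.5%), 2.49% (56.3%) and 87.3% (47.0%) in the same order, and with the deposited ratios it was 60.9% at E17. Without normalisation 7 of the 7 genes, against 3, passed 2-fold in P PN2 over P E17, 2 against 0 in DF PN2 over DF E17, and 1 against 3 at E17. Of the other endothelial genes, 9 against 2 passed in P PN2 over P E17, 8 against 1 for the change between stages, and 1 against 3 at E17, where the deposited ratios gave 6. These counts stand beside a shift of all 14238 genes without normalisation. In P PN2 over P E17, 4980 of them were lower and 127 higher past 2-fold. For the change between stages 3301 were higher and 480 lower. In DF PN2 over DF E17 it was 364 higher and 1357 lower, and at E17 921 and 2685. Median centring and the deposited ratios each gave 2 in P PN2 over P E17, with Cdh5 at -0.94 and -0.85, no longer past 2-fold. With RefSeq probes, 5 of the 7 genes were lower in P PN2 than in P E17 (Kdr and Tek joining). For the change between stages, median centring, the median probe, the brightest probe and RefSeq probes each gave 2 other endothelial genes. The cause was not tested. Sox18 and Pdgfrb have 1 probe each, were kept by the filter, and had no signal under the 5th percentile. For these reasons 5 of the 8 alternatives could not move them. Under the other 3, all scalings, both kept their direction and side of 2-fold in DF PN2 over P PN2 and in P PN2 over P E17. No paired analysis was possible because each tissue and stage has 1 signal column. Signals under 37.9, such as the 35.3 of Tek in P PN2, have little precision, and the 38.5 of the Cdh5 A_52 probe there lies just above this limit.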

Other observations

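Genes of vessel types did not follow one direction. Of 8 measured arterial genes, at PN2 follicle exceeded papilla past 2-fold for 3 and lay below it for 1, and at E17 4 were higher, with Efnb2, an arterial ephrin gene, at 1.73 and 1.11 and Sox17 at 1.33 and 1.58. Among all genes 12.8% were higher and 13.4% lower at PN2, and 10.5% higher at E17. The Notch ligand gene Dll4 was on the papilla side at PN2 (-1.08), with 205 in DF PN2, 434 in P PN2, 277 in DF E17 and 461 in P E17. All 8 arterial genes were below 0 in DF PN2 over DF E17, with Notch4 (-1.09) and Gja5 (-1.01) past 2-fold. Of 6 venous genes, Selp, which encodes P-selectin of endothelium and platelets, was higher in DF PN2 than in P PN2 (1.96) and than in DF E17 (1.32), and Ackr1, an atypical chemokine receptor gene of venules and red cells, was higher at PN2 in both tissues (1.74 in follicle, 1.00 in papilla, at the limit).

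Lymphatic genes were divided. Of 6 measured, 1 was higher and 2 lower past 2-fold in follicle at PN2, and 3 were higher and 2 lower at E17. The matching shares of all genes were 12.8% and 13.4% at PN2, and 10.5% and 10.1% at E17. Flt4 (2.02 at PN2 and 1.25 at E17) was on the follicle side, whereas Prox1 (-1.17 and -1.88) and the chemokine gene Ccl21a (-3.12 and -2.69) were on the papilla side. Ccl21a had 341 in DF PN2, 2965 in P PN2, 264 in DF E17 and 1701 in P E17, and it has near-identical copies that its single probe may not tell apart. Among 8 measured inward rectifier channel genes, the family of Kcnj8, Kcnj2 was on the follicle side (1.53 at PN2, 3.88 at E17), with 1937 in DF PN2, 671 in P PN2, 1914 in DF E17 and 130 in P E17.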
